A study of Mus musculus with 30 samples.

Results

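RNA was sequenced from spleen CD4 T cells, which help, restrain or direct other immune cells, in 3 mice whose Prmt5 gene was conditionally knocked out (CKO 65, 68 and 72) and 3 wild type mice (WT 67, 70 and 71). These 6 libraries, of 30 in the series, were chosen by the tissue, population and genotype in the sample titles, and no measured value entered the choice. All mice were C57BL/6 by the labels. The CKO mice carried CD4-Cre+ and PRMT5fl/fl, and the WT mice are labelled only as wild type. The numbers are those of the animals, and spleen CD8 cells of the same 6 mice are in the series as well. Cells were taken fresh from the tissue, stained and sorted by flow cytometry, and the labels give neither the stains of the gate nor a treatment, an age or a sex. CD4-Cre is a transgene whose Cre recombinase is switched on at the double-positive stage of the thymus, so that CD4 cells and CD8 cells both reach the spleen after the deletion. The labels name no mice with CD4-Cre and an intact Prmt5 gene, and what the Cre transgene itself does cannot be told apart from the deletion.

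Prmt5 encodes the main enzyme that dimethylates arginines symmetrically, on histone tails and on the Sm proteins from which the splicing machinery is built. It works in a complex with the product of Wdr77, and the product of Clns1a hands it the Sm proteins. A resting spleen holds naive CD4 cells, which recirculate, beside smaller subsets that have met antigen. Follicular helper cells use the chemokine receptor Cxcr5 to enter B cell follicles and the cytokine Il21 to drive B cells in germinal centres. Regulatory cells, defined by the transcription factor Foxp3, hold other T cells in check.

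Total counts per library ran from 24729146 to 27137018, and 14292 genes had enough counts to be tested. Levels are given as CPM, counts scaled to equal library totals and corrected for library composition, in the order WT 67, 70 and 71 and then CKO 65, 68 and 72. A log2 value is a fitted log2 fold change of CKO over WT ± its standard error (SE). A gene was called, or said to rise or fall, where its adjusted p from edgeR's quasi-likelihood test over all genes lay under 0.05. By this rule 1219 genes rose (8.53% of those tested) and 805 fell (5.63%), together 14.2%. At a log2 of at least 1 in size 259 rose and 148 fell, and the median size of a called change was 0.506 upward and 0.464 downward. The genotypes did not overlap, with all 3 libraries of one above all 3 of the other, in 32.9% of all genes tested. Among called genes this held for 1198 of the 1219 that rose and 797 of the 805 that fell, so it adds little to a call. Genotype lay along the first principal component, which held 45.4% of the variance, with WT libraries from -33.7 to -25.7 and CKO libraries from 23.4 to 35.2. All 6 mice read as female by Xist (965 to 1381 CPM) and Ddx3y (0 to 2 counts). In sorted tissue RNA such as this, fewer cells of a type and less RNA per cell cannot be told apart.

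**Figure D1:**
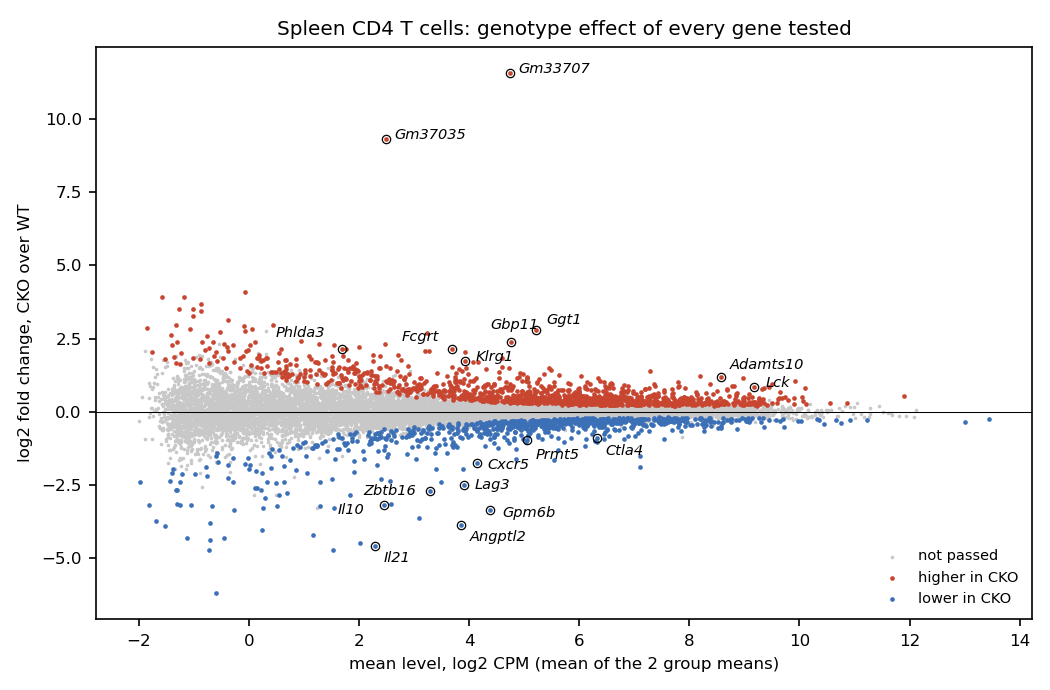
Each point is 1 of the 14292 genes tested, placed by its mean level (log2 CPM, x axis) and its log2 fold change of CKO over WT (y axis), with called genes in red (higher) and blue (lower) and selected genes ringed. Il21, Angptl2, Gpm6b, Il10, Zbtb16 and Lag3 lie far below 0, and the gene models Gm33707 and Gm37035 stand apart at the top.

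The targeted transcript checked the labels. Prmt5, at 54507182 to 54517470 on chromosome 14 of GRCm38.p6, stood at 43.7, 44.8 and 44.0 CPM in WT and at 24.2, 19.1 and 24.3 CPM in CKO, so that every CKO library lay below every WT library and kept part of the transcript (log2 -0.97 ± 0.10, adjusted p = 1.09e-04). Of the 10 tested genes of the methyltransferase list 0 rose and 1 fell, while Prmt8 and Coprs were too low to test. Prmt3, an arginine methyltransferase of the ribosome, fell (log2 -0.39 ± 0.09, adjusted p = 0.0108), a call lost without WT 71 (adjusted p = 0.0601). Wdr77 (log2 -0.05 ± 0.08) and Clns1a (log2 -0.03 ± 0.08), the partners of Prmt5, did not pass. Markers of CD4 T cells were abundant in both genotypes. Cd4, the coreceptor of the sorted cells, stood at 874, 858 and 863 CPM in WT and at 967, 935 and 903 CPM in CKO and did not pass (log2 0.11 ± 0.06, adjusted p = 0.254). Cd3e, a chain of the T cell receptor complex, did not pass either (log2 -0.08 ± 0.06). Of 10 CD4 T cell markers 1 rose, St8sia6 (lost without WT 71, adjusted p = 0.0543), and 1 fell, Izumo1r, and their summed level was 2910 to 3070 CPM in WT and 3130 to 3180 CPM in CKO. Cd8a, the coreceptor of CD8 cells, stood at 2.32 to 4.603 CPM in WT and 3.45 to 5.44 CPM in CKO, against a WT mean of 1158 CPM in the spleen CD8 libraries. Cd8b1, the other chain of that coreceptor, rose from 8.55, 9.67 and 9.22 CPM to 15.5, 16.9 and 16.2 CPM (log2 0.82 ± 0.12, adjusted p = 0.00115). Of 4 CD8 T cell markers 2 rose, Cd8b1 and Itgae, and 0 fell, with a summed level of 20.7 to 30.1 CPM in WT and 42.4 to 46.2 CPM in CKO. The part of CD8 cells in the results that follow was not tested.

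Most of the tested genes of follicular helper cells fell. Of 26 genes in the list 25 were tested, 0 rose and 18 fell, against 5.63% of all genes. This list and those below were chosen with earlier results of these data known, so their counts are descriptions and not tests. Each count below stands beside the same shares of all genes tested, 8.53% higher and 5.63% lower. The median log2 fold change of the 25 was -0.76, beside -0.0057 over all genes tested, and all 25 estimates were negative. The members that fell include the cytokine, the receptor, the transcription factors and the surface proteins by which these cells are recognised. In 17 of the 18 the genotypes did not overlap, as in 797 of the 805 genes that fell in all.

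The promoters of 3 of the genes that fell are shown, as the start of a cytokine, a surface receptor and an inhibitory receptor of the subset. Each is the 250 bases before a transcript start in RefSeq, build GRCm38.p6, the build of the counts, written 5′ to 3′ on the strand of the gene. Capitals mark TGGAAA, the core bound by NFAT, on either strand. Il21 lies at chr3:37232637-37232886, minus strand. Izumo1r lies at chr9:14903768-14904017, minus strand, and overlaps the annotated span of the gene, which ends at 14903951. Pdcd1 lies at chr1:94052554-94052803, minus strand, and holds no match.
Il21: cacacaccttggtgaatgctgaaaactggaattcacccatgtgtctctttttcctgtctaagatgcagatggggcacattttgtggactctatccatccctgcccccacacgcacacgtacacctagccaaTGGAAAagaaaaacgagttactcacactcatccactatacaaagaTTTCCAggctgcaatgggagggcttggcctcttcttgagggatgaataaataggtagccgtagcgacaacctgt
Izumo1r: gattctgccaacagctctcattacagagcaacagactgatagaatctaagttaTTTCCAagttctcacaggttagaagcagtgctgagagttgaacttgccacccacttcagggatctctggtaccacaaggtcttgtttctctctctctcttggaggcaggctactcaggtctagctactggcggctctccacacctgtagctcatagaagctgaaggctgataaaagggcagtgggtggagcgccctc
Pdcd1: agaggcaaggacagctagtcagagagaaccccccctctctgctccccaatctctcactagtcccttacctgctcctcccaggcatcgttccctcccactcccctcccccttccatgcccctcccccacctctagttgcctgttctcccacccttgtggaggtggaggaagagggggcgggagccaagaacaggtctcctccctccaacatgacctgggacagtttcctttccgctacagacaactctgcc

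The Il21 window holds the core at 119 and at 74 bases before the start, and the Izumo1r window at 197 bases. Of the 18 follicular helper genes that fell 13 had a promoter there, with 20 promoters in all, and 5 of these (25%) held TGGAAA. Tox2 alone had 5 of the 20 promoters, so these are not separate genes. The Angptl2 promoter, not shown, held no match. Among the promoters of all genes tested 15.5% held it, and among all 32851 promoters there 18.6%. TGANTCA, a site of AP-1 factors, was in 1 of the 20 (5.0%), in 4.34% of the promoters of genes tested and in 6.75% of all. TTCNNNGAA, a site of STAT factors, was in 2 of the 20 (10%), in 6.08% and in 7.02%. Both strands of the 250 bases were searched, and a match is a description of letters, with no binding measured here.

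The secreted products of the subset fell most. Il21 stood at 7.66, 3.18 and 17.5 CPM in WT and at 0.508, 0.401 and 0.245 CPM in CKO, which rest on 198, 83 and 471 counts against 14, 10 and 6. The lowest WT library therefore held several times the level of the highest CKO library, and the WT libraries themselves were far apart. The fall was 24.1-fold (log2 -4.59 ± 0.59, adjusted p = 4.21e-04), and without WT 71 the log2 value was -3.79. Sostdc1, a secreted antagonist of BMP and Wnt signals, stood at 4.91, 3.80 and 14.5 CPM against 0.0360, 0.883 and 0.123 CPM (log2 -4.49 ± 0.73, adjusted p = 0.00197), with log2 values of -3.65 without WT 71 and -6.56 without CKO 68. Angptl2, a secreted glycoprotein of the angiopoietin-like family, stood at 21.8, 15.5 and 44.2 CPM against 2.36, 1.97 and 1.23 CPM (log2 -3.86 ± 0.37, adjusted p = 5.75e-05). In all 3 genes WT 71 was the highest of the 6 libraries. Il4, a cytokine of follicular helper and type 2 cells, had 11, 16 and 14 counts in WT and 2, 0 and 2 in CKO (log2 -3.21 ± 0.73, adjusted p = 0.0127), and this call was lost without WT 70 (adjusted p = 0.0581) or WT 71 (adjusted p = 0.0541).

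Receptors of the subset fell as well. Cxcr5, the follicle homing receptor, stood at 21.7, 23.4 and 36.7 CPM in WT and at 10.2, 6.42 and 7.61 CPM in CKO. The groups were well apart, with a fall of 3.38-fold (log2 -1.75 ± 0.21, adjusted p = 2.87e-04). Izumo1r, folate receptor 4 of follicular helper and regulatory cells, stood at 128, 132 and 184 CPM against 78.4, 86.7 and 68.6 CPM (log2 -0.92 ± 0.13, adjusted p = 7.49e-04). Icos, a costimulatory receptor needed to keep follicular helper cells, went from 48.9, 53.6 and 58.7 CPM to 32.6, 30.6 and 35.1 CPM (log2 -0.71 ± 0.09, adjusted p = 3.84e-04). For these 3 receptors the call held whichever library was left out. P2rx7, an ATP-gated channel that limits the survival of follicular helper cells in the gut, fell by 0.76 on the log2 scale (SE 0.09). Pdcd1, which encodes the inhibitory receptor PD-1, stood at 23.5, 23.9 and 41.0 CPM against 19.3, 10.5 and 12.4 CPM (log2 -1.06 ± 0.24, adjusted p = 0.0126). The CKO 65 value of Pdcd1 came near the WT range, and its call was lost without WT 71 (adjusted p = 0.0711). Btla, an inhibitory receptor, and Cd200, a ligand of one, had the smaller falls of log2 -0.29 ± 0.07 and -0.58 ± 0.18, and both calls were lost without WT 70, WT 71 or CKO 72. Without CKO 68 the Cd200 call was lost too (adjusted p = 0.126).

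The transcription factors of the programme had smaller estimates than Il21, Sostdc1 and Angptl2. Bcl6, the repressor that defines the subset, stood at 34.3, 33.9 and 48.1 CPM in WT and at 25.2, 25.1 and 28.7 CPM in CKO. Both genotypes were tight apart from WT 71, and the change was log2 -0.56 ± 0.13 (adjusted p = 0.0154), lost without WT 71 (adjusted p = 0.0583). Maf, an activator of Il21 and Il10, stood at 108, 83.0 and 132 CPM against 64.2, 43.5 and 50.4 CPM (log2 -1.03 ± 0.16, adjusted p = 0.00148). Tox2 (log2 -1.21 ± 0.25, adjusted p = 0.00717) and Tox (log2 -0.40 ± 0.07, adjusted p = 0.00302), HMG-box factors of follicular helper and exhausted cells, fell whichever library was left out. Ascl2, which turns on Cxcr5, had a low level, 1.28, 2.03 and 2.56 CPM against 0.544, 0.923 and 0.573 CPM (log2 -1.52 ± 0.40, adjusted p = 0.0247). Its call was lost without WT 70, WT 71, CKO 65 or CKO 72, with adjusted p from 0.0567 to 0.123. Rgs16, which damps chemokine receptor signals, fell from 34.3, 35.7 and 61.1 CPM to 10.7, 16.3 and 16.0 CPM (log2 -1.61 ± 0.22). Cebpa, a C/EBP factor, had the weakest support of the list (log2 -1.35 ± 0.42, adjusted p = 0.0489) and was lost without WT 71 (log2 -0.63, adjusted p = 0.275), CKO 65, CKO 68 or CKO 72.

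Not every gene of these cells moved. The signalling adaptor Sh2d1a (log2 -0.06, adjusted p = 0.73), the homophilic receptor Slamf6 (log2 -0.01, adjusted p = 0.96) and Il6st, the signal chain of the interleukin 6 receptor (log2 -0.12, adjusted p = 0.33), did not pass. WT 71 was the highest WT library for 17 of the 18 genes that fell. Without it 11 of the 25 genes fell and 0 rose, and without WT 70 or without CKO 72 the number was 14. B cell markers summed to 77.8 to 84.7 CPM in WT and 75.4 to 101 CPM in CKO. Of 12 tested 1 rose, Cd74 (lost without WT 70, WT 71 or CKO 72), and 1 fell, Cd22, and Ighm was listed at 0 in all 6 libraries. A listed 0 is not shown to mean absence, since the T cell genes Trbc1, Trbc2 and Ltb were listed at 0 as well. The part of B cells in the result was not tested.

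**Figure D2:**
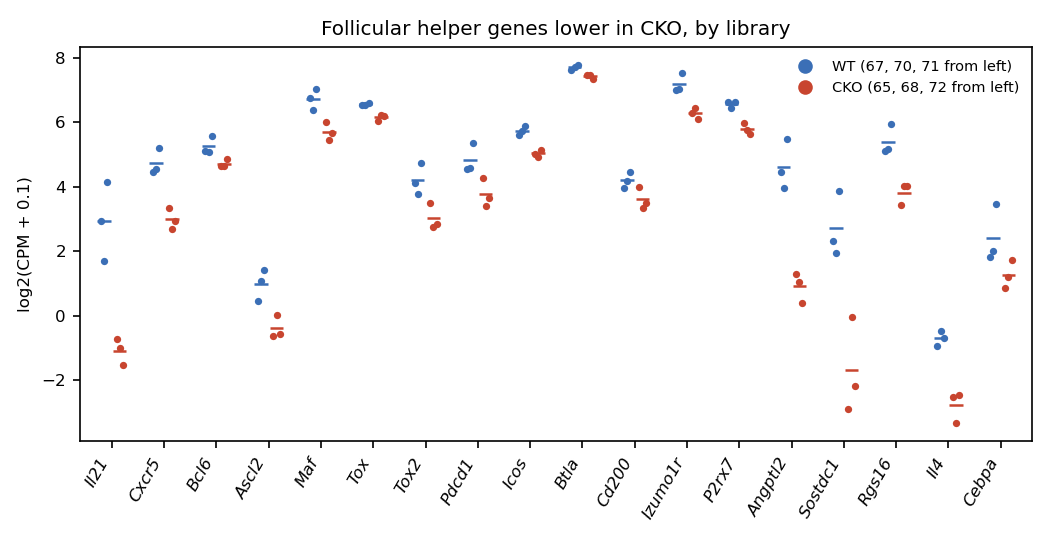
Each point is 1 library, at log2(CPM + 0.1) on the y axis, for the 18 follicular helper genes that fell, with WT in blue, CKO in red and a short line at each group's mean of 3. The blue points lie above the red ones for every gene but Cd200, and WT 71, the right of each blue triple, is the highest for all but 1 gene.

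Many regulatory T cell genes fell, while Foxp3, which defines the lineage, did not pass. Foxp3 stood at 126, 115 and 113 CPM in WT and at 106, 124 and 106 CPM in CKO, the genotypes overlapped, and it did not pass (log2 -0.08 ± 0.08, adjusted p = 0.564). All 26 genes of the list were tested, 4 rose and 11 fell, 57.7% called against 14.2% of all genes. The median log2 fold change was -0.291, beside -0.0057 over all genes tested. In each of the 15 called genes the genotypes did not overlap, as in nearly all called genes. With any single library left out 10 to 12 fell and 4 rose.

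The genes that fell cover the surface, the factors and the cytokines of these cells. Ctla4, a receptor that strips costimulatory ligands from other cells, stood at 96.3, 96.9 and 119 CPM in WT and at 54.3, 58.0 and 54.7 CPM in CKO (log2 -0.90 ± 0.09, adjusted p = 5.82e-05). The 3 CKO libraries lay within a few CPM of each other. Il2ra, the high-affinity chain of the interleukin 2 receptor, went from 84.2, 82.6 and 82.3 CPM to 66.9, 58.1 and 51.6 CPM (log2 -0.50 ± 0.09, adjusted p = 0.00347). Nrp1, a semaphorin receptor of thymus-derived regulatory cells, went from 99.8, 112 and 132 CPM to 67.7, 46.1 and 64.0 CPM (log2 -0.95 ± 0.13, adjusted p = 7.55e-04). Lrrc32, which holds latent TGF-beta on the cell surface, stood at 65.4, 69.3 and 79.0 CPM against 31.8, 42.7 and 28.6 CPM (log2 -1.05 ± 0.13, adjusted p = 3.29e-04). Its partner in activating TGF-beta, the integrin chain Itgb8, fell too (log2 -1.43 ± 0.26, adjusted p = 0.00358). Of the Ikaros factors, Ikzf2 (Helios) stood at 272, 250 and 324 CPM against 191, 184 and 158 CPM (log2 -0.67 ± 0.10, adjusted p = 0.00115). Ikzf4 (Eos) fell by less (log2 -0.34 ± 0.10, adjusted p = 0.0352), and its call was lost without WT 70, WT 71, CKO 68 or CKO 72. Tigit, Cd83 and Tnfrsf4 fell by log2 -1.04 ± 0.15, -1.17 ± 0.21 and -0.53 ± 0.12.

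Il10, the inhibitory cytokine of several CD4 subsets, had the steepest fall of the regulatory list. It stood at 10.6, 6.25 and 12.7 CPM in WT and at 1.27, 0.883 and 1.02 CPM in CKO, a fall of 9.24-fold (log2 -3.21 ± 0.29, adjusted p = 4.04e-05). The lowest WT library was well above the highest CKO library, though a gap was a condition of its place among the 15 largest falls. Against this direction Klrg1, a receptor of terminally differentiated T cells, rose from 7.27, 8.13 and 5.87 CPM to 17.2, 24.001 and 28.9 CPM (log2 1.72 ± 0.19, adjusted p = 1.48e-04). Itgae (CD103), the integrin chain that binds E-cadherin, rose from 7.12, 12.1 and 9.03 CPM to 21.2, 18.9 and 17.02 CPM (log2 1.02 ± 0.18, adjusted p = 0.00290). Il1rl1, the receptor of interleukin 33, rose by log2 0.91 ± 0.17 and Gbp4, a guanylate-binding protein gene, by 0.71 ± 0.09. Tnfrsf18 (GITR), a receptor of regulatory and activated cells, did not pass (log2 -0.13 ± 0.09).

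**Figure D3:**
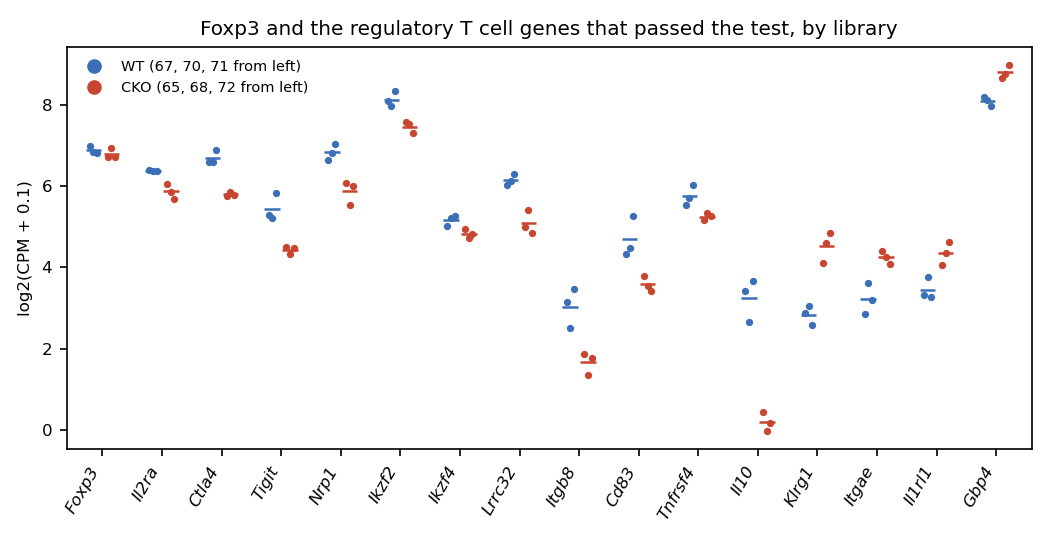
Each point is 1 library, at log2(CPM + 0.1) on the y axis, for Foxp3 and the 15 called genes of the regulatory list, with WT in blue, CKO in red and a short line at each group's mean of 3. Foxp3 overlaps between the genotypes, while 11 genes lie lower in CKO and Klrg1, Itgae, Il1rl1 and Gbp4 lie higher.

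Inhibitory receptors and cytokines repeated part of these changes and added others. Of 21 inhibitory receptor genes tested 4 rose and 9 fell, 61.9% called against 14.2% of all genes, with a median log2 fold change of -0.251. Among the 21, 3 are also in the follicular helper list and 3 in the regulatory list. Without WT 71, 6 fell. Lag3, which binds MHC class II, stood at 24.2, 14.3 and 37.9 CPM in WT and at 4.57, 4.66 and 4.25 CPM in CKO, a fall of 5.66-fold (log2 -2.50 ± 0.28, adjusted p = 1.83e-04). The CKO libraries were close together and the WT libraries were not. Nt5e (CD73), which makes adenosine, fell by log2 -1.01 ± 0.13, Pdcd1lg2 (PD-L2) by -0.95 ± 0.19 and Cd160 by -0.83 ± 0.20. The Cd160 call was lost without WT 67 (adjusted p = 0.0751) or WT 71 (adjusted p = 0.0623). Sidt1, a transmembrane protein of the SID1 family, rose from 206, 252 and 225 CPM to 412, 436 and 474 CPM (log2 0.95 ± 0.08, adjusted p = 2.93e-05).

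Of 28 cytokine genes 20 were tested, and 1 rose and 7 fell, 40% called against 14.2% of all genes (median log2 -0.267). Il21, Il4 and Il10 were among those that fell, and without WT 70, 2 rose. Tnf, Lta and Ltb were listed at 0 in all 6 libraries and could not be tested. Ifng, the cytokine of type 1 cells, stood at 24.4, 23.2 and 22.3 CPM in WT and at 18.004, 9.71 and 11.1 CPM in CKO (log2 -0.85 ± 0.19, adjusted p = 0.0111). Csf1, a growth factor of macrophages, fell from 11.3, 8.79 and 12.004 CPM to 4.21, 3.29 and 4.25 CPM (log2 -1.44 ± 0.19, adjusted p = 4.49e-04), Tnfsf11 (RANKL) by log2 -0.54 ± 0.11 and Spp1 (osteopontin) by -0.82 ± 0.19. The Spp1 call was lost without WT 67 (adjusted p = 0.0671). Il22, a cytokine that acts on epithelia, was the member that rose, from 0, 4 and 4 counts to 48, 33 and 57 (log2 4.09 ± 0.63, adjusted p = 0.00130). The type 2 and type 17 list gave 2 higher and 0 lower of 12 tested, 16.7% called against 14.2% of all genes. Beside Il22 this was Il1r1, a receptor of interleukin 1 (log2 1.47 ± 0.33, adjusted p = 0.0126), a call lost without CKO 72 (adjusted p = 0.0572). Without WT 70, 6 of the 12 rose.

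In the type 1 and cytotoxic list 3 of 29 rose and 4 fell, 24.1% called against 14.2% of all genes, and without CKO 68, 5 rose. Fasl, a death ligand, fell by log2 -0.59 ± 0.12, Cst7, an inhibitor of granule proteases, by -1.15 ± 0.20 and Bhlhe40, a repressor of Il10, by -0.42 ± 0.12. Il18r1, a receptor of interleukin 18, rose from 113, 138 and 99.6 CPM to 279, 177 and 194 CPM (log2 0.89 ± 0.16, adjusted p = 0.00285), and Gzma, a granule protease, by 1.58 ± 0.29. Tbx21, the factor of type 1 cells, did not pass (log2 -0.45 ± 0.26, adjusted p = 0.289), and without CKO 65 it did (adjusted p = 0.0131). The Bhlhe40 call was lost without WT 70, WT 71, CKO 65 or CKO 72, with adjusted p from 0.0692 to 0.174, and the call of Gzmb (log2 1.203 ± 0.34, adjusted p = 0.0329) was lost without the same 4 libraries.

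Zbtb16 (PLZF), the factor of natural killer T and other innate-like T cells, was among the 10 genes with the smallest p-values. It stood at 16.3, 18.7 and 16.2 CPM in WT and at 2.54, 2.45 and 2.74 CPM in CKO, a fall of 6.62-fold (log2 -2.73 ± 0.16, adjusted p = 1.67e-06). The spread within each genotype was small beside the distance between them, as a small p-value requires. Of 11 innate-like T cell genes 1 rose and 3 fell, and the members that fell beside Zbtb16 were Klrb1c (NK1.1), from 9.51, 10.9 and 12.2 CPM to 4.72, 3.89 and 5.40 CPM (log2 -1.22 ± 0.18, adjusted p = 0.00106), and Cd160. Cd163l1, a scavenger receptor of gamma delta T cells, rose from 1.97, 3.34 and 2.75 CPM to 7.15, 9.43 and 6.26 CPM (log2 1.5006 ± 0.24, adjusted p = 0.00200). Without WT 70, 3 of the 11 rose, and without CKO 65, 5 fell. Gamma delta T cell markers summed to 13.5 to 15.5 CPM in WT and 18.3 to 19.0 CPM in CKO, with 1 of 4 tested higher. Tcrg-C1 and Tcrg-C4 were listed at 0 in every library, which is not shown to mean absence. Killer lectin-like receptors gave 4 higher and 1 lower of 15 tested, with Klrd1 (CD94) at log2 1.03 ± 0.18 beside Klrg1, and 2 higher without WT 71. Natural killer cell markers summed to 62.2 to 65.3 CPM in WT and 72.6 to 101 CPM in CKO, with 4 of 8 higher and 1 lower. Their part in these results was not tested.

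Genes of naive and of antigen-experienced cells both held more rises than falls, as did all genes tested (8.53% and 5.63%). Of 25 naive and stem-like genes 8 rose and 2 fell, 40% called against 14.2% of all genes, with a median log2 fold change of 0.13. Without WT 67 or CKO 72, 5 rose, and without WT 71, CKO 65 or CKO 72, 1 fell. Igfbp4, which binds insulin-like growth factors and is high in naive CD4 cells, stood at 468, 527 and 516 CPM in WT and at 812, 980 and 910 CPM in CKO (log2 0.84 ± 0.08, adjusted p = 5.75e-05). Il7r, the survival receptor of resting T cells, went from 477, 574 and 539 CPM to 696, 652 and 773 CPM (log2 0.41 ± 0.08, adjusted p = 0.00720). In neither of these genes did the genotypes overlap, as in nearly all called genes. Klf2, a factor of quiescence and of recirculation, rose by log2 0.35 ± 0.08 (lost without WT 70, adjusted p = 0.0594), while S1pr1, the exit receptor that it controls, fell from 672, 714 and 749 CPM to 569, 570 and 531 CPM (log2 -0.35 ± 0.07, adjusted p = 0.00472). Tcf7 (log2 -0.12 ± 0.07) and Lef1 (log2 -0.04 ± 0.07), the factors of naive T cells, and the homing receptor Ccr7 (log2 -0.33 ± 0.10, adjusted p = 0.0574) did not pass, though Ccr7 did without WT 67 (adjusted p = 0.0278).

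Of 26 activation and memory genes 8 rose and 2 fell, 38.5% called against 14.2% of all genes, with a median of 0.274. With any 1 WT library left out 5 rose, without CKO 68, 12 rose, and the number that fell ran from 0 (without WT 70 or CKO 72) and 1 (without WT 71 or CKO 68) to 4 (without CKO 65). Crip1, a LIM protein of memory cells, went from 16.1, 21.3 and 17.8 CPM to 50.6, 34.5 and 40.0 CPM (log2 1.18 ± 0.14, adjusted p = 2.94e-04). Lgals1 (galectin 1) rose by log2 0.89 ± 0.13, Ly6c1 by 0.73 ± 0.12 and Emp3 by 0.50 ± 0.08. The fibrous protein gene Vim rose by 0.52 ± 0.12, a call lost without WT 67 (adjusted p = 0.0790), and CKO 65 was its highest library at 665 CPM against 331 to 502 CPM in the others. Itga4, a chain of the integrin VLA-4, fell (log2 -0.32 ± 0.07, adjusted p = 0.0121), a call lost without WT 70 (adjusted p = 0.0715) or CKO 72 (adjusted p = 0.0612). Cd44, the usual surface mark of memory cells, stood at 156, 162 and 184 CPM in WT and 164, 106 and 120 CPM in CKO and did not pass (log2 -0.36 ± 0.13, adjusted p = 0.0870). Without CKO 65 its adjusted p was 9.21e-04.

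Chemokine receptors and integrins gave 11 higher and 6 lower of 37, with 11 lower without CKO 65. Itgb3, the chain that pairs in the vitronectin receptor, rose from 178, 154 and 147 CPM to 304, 305 and 262 CPM (log2 0.86 ± 0.09, adjusted p = 7.34e-05). Itgb7, the chain of the gut homing integrin, went from 805, 771 and 725 CPM to 1044, 977 and 991 CPM (log2 0.39 ± 0.07, adjusted p = 0.00255), and Itgb2, the chain shared by LFA-1 and Mac-1, rose by log2 0.42 ± 0.06. Gpr15, a gut homing receptor outside the list, was among the 15 largest rises, from 1.90, 3.84 and 2.49 CPM to 10.4, 8.99 and 11.8 CPM (log2 1.92 ± 0.25, adjusted p = 3.84e-04). For Itgb3, Itgb7 and Gpr15 every CKO library was above every WT library, as in nearly all genes that rose. For Gpr15 this was a condition of its place among the 15. Itgam (log2 0.91 ± 0.15) and Itgax (log2 1.23 ± 0.25), integrin chains that myeloid cells carry, rose as well.

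Myeloid markers moved with genotype. Of 17 tested 15 rose and 1, Cybb, fell (median log2 1.18), and their summed level was 146 to 191 CPM in WT and 202 to 412 CPM in CKO. Csf1r, the receptor of macrophage growth factor, stood at 31.4, 21.3 and 19.0 CPM in WT and at 61.3, 32.2 and 82.1 CPM in CKO (log2 1.29 ± 0.27, adjusted p = 0.00853), and C1qa, a complement gene of tissue macrophages, at 9.05, 6.83 and 4.05 CPM against 20.1, 10.4 and 27.2 CPM. CKO 68 held the least and CKO 72 the most of the 3 CKO libraries for both, and without WT 71 their adjusted p were 0.0636 and 0.0530. Lyz2 (lysozyme) was set apart by CKO 72 alone, at 42.2 CPM against 8.13 to 12.6 CPM in the other 5 libraries (log2 1.28 ± 0.39, adjusted p = 0.0467), and its call was lost without CKO 72 (log2 0.44, adjusted p = 0.111) or any WT library. Without WT 71, 4 of the 17 rose and 0 fell, and without WT 70 or without CKO 72, 7 rose. Ly6g, the mark of neutrophils, was listed at 0 in all libraries, which is not shown to mean absence. Mertk, a receptor by which macrophages take up dying cells, belongs beside these markers among the 15 largest rises, at 3.17, 1.53 and 1.23 CPM against 7.77, 6.22 and 8.63 CPM (log2 1.93 ± 0.32, adjusted p = 0.00202). Dendritic cell markers summed to 43.2 to 48.9 CPM against 48.9 to 67.9 CPM, and erythroid and platelet markers to 11.9 to 14.5 CPM against 24.5 to 30.0 CPM. The part of such cells in the rises of Itgam, Itgax, Mertk and other genes they carry was not tested.

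**Figure D4:**
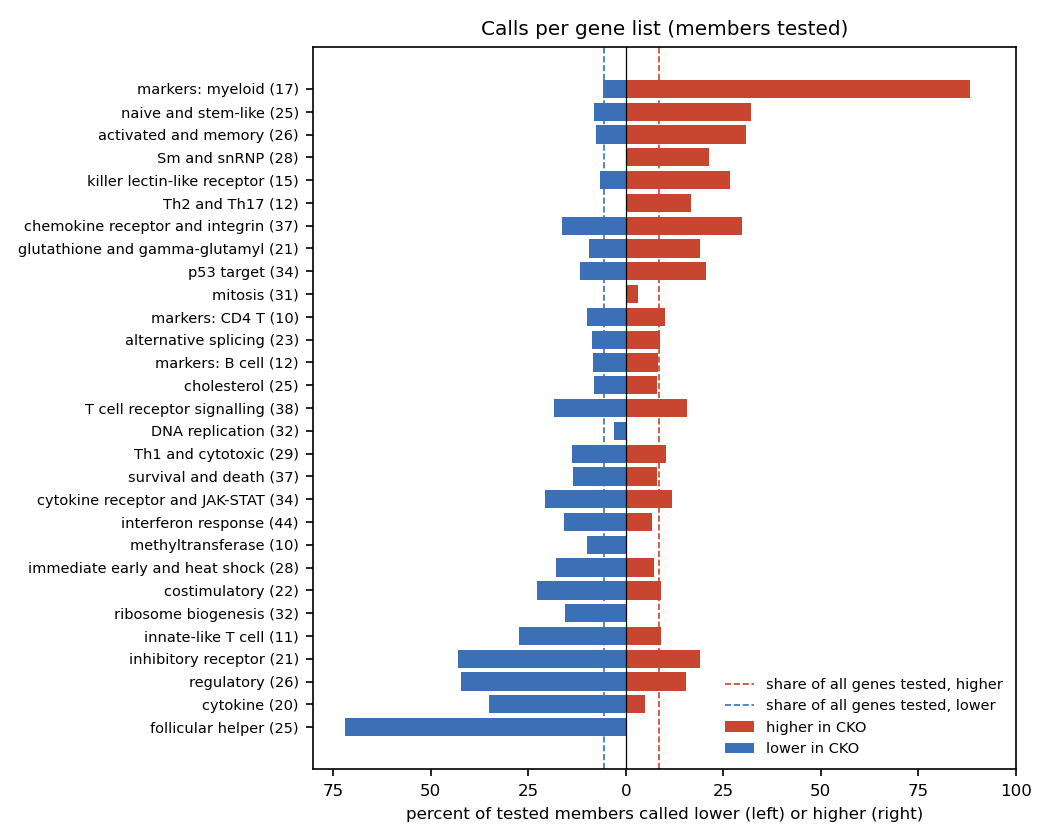
Bars give the percent of the tested members of each gene list (their number in brackets) that were called lower (blue, to the left) or higher (red, to the right) in CKO, and dashed lines give the same share of all genes tested, 5.63% and 8.53%. Follicular helper genes have the longest bar to the left and myeloid markers the longest to the right. The lists were chosen with earlier results of these data known.

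T cell receptor signalling genes moved both ways, 6 higher and 7 lower of 38 tested, with 4 lower without WT 71. The share called was 34.2% against 14.2% of all genes. Lck, the kinase that starts the signal, stood at 424, 379 and 432 CPM in WT and at 692, 778 and 742 CPM in CKO, a rise of 1.79-fold (log2 0.84 ± 0.07, adjusted p = 2.93e-05). Ptprc (CD45), the phosphatase that controls Lck, went from 3202, 2999 and 3142 CPM to 4335, 4839 and 4429 CPM (log2 0.54 ± 0.07, adjusted p = 3.87e-04). Plcg1, the phospholipase downstream, rose by log2 0.44 ± 0.07 and Cblb, a ubiquitin ligase that limits the signal, by 0.45 ± 0.07. Fyn, the other proximal kinase, fell from 503, 479 and 532 CPM to 400, 424 and 417 CPM (log2 -0.29 ± 0.07, adjusted p = 0.0125). Nfatc1, a factor that the signal activates, fell by log2 -0.47 ± 0.07 (adjusted p = 7.15e-04), and the signal-induced genes Egr2 (log2 -0.77 ± 0.18, lost without WT 71 at an adjusted p of 0.0831), Egr3 (log2 -0.53 ± 0.13) and Nr4a2 (log2 -0.64 ± 0.18) fell with it. The Egr3 call was lost without WT 70, WT 71 or CKO 68 and that of Nr4a2 without any WT library. None of the 4 that rose here lost its call when a library was left out. Among costimulatory genes 2 of 22 rose (1 whichever library was left out) and 5 fell, with Tnfrsf25 (DR3) rising from 61.4, 70.01 and 63.4 CPM to 137, 125 and 111 CPM (log2 0.94 ± 0.09, adjusted p = 4.04e-05) and Cd28 falling by log2 -0.45 ± 0.08.

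Genes of cytokine signalling and of the interferon response moved both ways. Of 34 cytokine receptor and JAK-STAT genes 4 rose and 7 fell. Without WT 67, WT 70 or CKO 72, 2 rose, without WT 70 or WT 71, 3 fell, and without CKO 72, 4 fell. Stat6, the factor of interleukin 4, rose from 284, 268 and 266 CPM to 336, 384 and 374 CPM (log2 0.42 ± 0.07, adjusted p = 0.00211). Il2rb, the interleukin 2 receptor chain, fell by log2 -0.34 ± 0.09, a call lost without WT 70, WT 71, CKO 68 or CKO 72. Of 44 interferon response genes 3 rose and 7 fell, against 8.53% and 5.63% of all genes, with 1 higher without WT 71 and 6 higher without CKO 68. Irf1 fell from 494, 429 and 398 CPM to 271, 287 and 328 CPM (log2 -0.58 ± 0.09, adjusted p = 0.00183), and Irgm1, a GTPase against intracellular microbes, from 78.2, 76.5 and 71.5 CPM to 41.7, 32.4 and 46.9 CPM (log2 -0.90 ± 0.11). Usp18, which shuts off the interferon receptor, rose from 23.01, 26.7 and 23.7 CPM to 44.4, 56.6 and 95.3 CPM (log2 1.42 ± 0.22, adjusted p = 0.00126). Guanylate-binding proteins, looked at after their values were seen, split by chromosome. Of 6 tested on chromosome 5, 5 rose, Gbp11 the most, from 8.51, 10.01 and 7.43 CPM to 37.4, 40.7 and 58.5 CPM (log2 2.39 ± 0.17, adjusted p = 1.11e-05). Of 5 on chromosome 3, 0 rose and Gbp5 (log2 -0.78 ± 0.11), Gbp3 (log2 -0.79 ± 0.15) and Gbp2b (log2 -1.24 ± 0.29, lost without WT 70) fell. These genes are members of a family, so how reads were divided among the more similar ones is uncertain, and Gbp11 is annotated as a pseudogene.

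Splicing genes hold the best known substrates of Prmt5. Of 28 Sm and small nuclear ribonucleoprotein genes 6 rose and 0 fell (21.4% called against 14.2% of all genes, median log2 0.08). The 6 calls, named below, include none of the core Sm protein genes, and Snrpd3, one of these, did not pass (log2 0.09 ± 0.08, adjusted p = 0.509). The summed level of the list was 4230 to 4330 CPM in WT and 4810 to 5290 CPM in CKO. In that sum Sf3b1 went from a mean of 1669 to 2056 CPM and Prpf8 from 663 to 900 CPM. Prpf3, a protein of the U4/U6 particle, stood at 51.5, 52.5 and 52.4 CPM in WT and at 83.7, 97.1 and 87.2 CPM in CKO (log2 0.78 ± 0.07, adjusted p = 5.57e-05). Prpf8, the core of the spliceosome, rose by log2 0.44 ± 0.08 and Sf3b1, which binds the branch point, by 0.30 ± 0.06. The other calls, Prpf4, Lsm11 and U2af1, had adjusted p of 0.00993 to 0.0271 and were each lost without WT 71, so that 3 of the 28 rose in that fit. U2af1 was also lost without WT 70, CKO 68 or CKO 72, and Lsm11 without any library but CKO 68. Snrnp40, a protein of the U5 particle outside the list, was among the 15 largest rises, at 1.39, 1.30 and 1.04 CPM against 3.67, 5.30 and 7.73 CPM (log2 2.15 ± 0.31, adjusted p = 8.50e-04). Of 23 alternative splicing factors 2 rose and 2 fell, 17.4% called against 14.2% of all genes. Rbm5 at log2 0.36 ± 0.07 and Srsf7 at 0.35 ± 0.09 lay above, and Mbnl2 at -0.35 ± 0.08 and Clk1 at -0.30 ± 0.08 under 0. The calls of Srsf7, Mbnl2 and Clk1 were each lost without WT 71, that of Srsf7 also without WT 70, CKO 68 or CKO 72, and that of Clk1 without any library but CKO 68.

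Genes of mitosis and of DNA replication held few calls, 3.23% and 3.12% of those tested against 14.2% of all genes. Of 31 mitosis genes 1 rose and 0 fell, Racgap1, a regulator of cytokinesis, at 22.5, 20.7 and 23.2 CPM against 49.2, 24.6 and 34.6 CPM (log2 0.71 ± 0.19, adjusted p = 0.0275). The median of the list was nonetheless 0.396, with 29 of 31 estimates positive, and CKO 65 was the highest library for Racgap1 and for Mki67 (101, 93.8 and 98.4 CPM in WT against 205, 97.1 and 119 CPM in CKO). Mki67, the usual mark of dividing cells, did not pass (log2 0.53 ± 0.20, adjusted p = 0.107), though without CKO 68 it did (adjusted p = 0.0138). Without CKO 68, 9 of the 31 rose, with no count filter 15 rose, and without any of the other 5 libraries 0 rose. In the DNA replication list 0 of 32 rose and 1 fell, Mcm6 (log2 -0.31 ± 0.08), a helicase subunit whose call was lost without WT 71, CKO 68 or CKO 72. Without CKO 65, 2 fell, and without CKO 68, 1 rose. Ribosome biogenesis genes gave 0 higher and 5 lower of 32, Npm1 (log2 -0.33 ± 0.06, adjusted p = 0.00577) among them. The share called, 15.6%, was near the 14.2% of all genes. Without WT 70, 1 fell, without WT 71 or CKO 72, 2, and without WT 67, 3, while 2 rose without CKO 65 and 1 without CKO 68.

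Of 34 targets of p53, the tumour suppressor, 7 rose and 4 fell, 32.4% called against 14.2% of all genes. Without WT 71, 4 rose and 1 fell, without CKO 72, 4 rose and 2 fell, and without WT 67, WT 70 or CKO 65, 2 fell. Phlda3, an inhibitor of Akt, stood at 1.005, 1.23 and 1.38 CPM in WT and at 5.01, 5.54 and 5.28 CPM in CKO (log2 2.13 ± 0.24, adjusted p = 1.92e-04). Bax, a pore former of apoptosis, went from 45.1, 42.6 and 48.2 CPM to 63.7, 68.3 and 67.99 CPM (log2 0.56 ± 0.08, adjusted p = 5.86e-04), and Trp53 itself rose by log2 0.33 ± 0.06. Cdkn1a (log2 0.21 ± 0.32) and Mdm2 (log2 0.06 ± 0.07), the best known targets, did not pass, and Btg2 fell by log2 -0.57 ± 0.08. Of 37 survival and death genes 3 rose and 5 fell, against 8.53% and 5.63% of all genes, with the survival gene Bcl2 at log2 0.33 ± 0.07. Abca1, which exports cholesterol, rose from 51.7, 64.4 and 46.7 CPM to 117, 92.8 and 124 CPM (log2 1.04 ± 0.13, adjusted p = 2.92e-04), and Insig1, which holds back its synthesis, fell by log2 -0.59 ± 0.08. For Phlda3, Bax and Abca1 the genotypes did not overlap, as in nearly all called genes. For Phlda3 this was a condition of its place among the 15 largest rises. The cholesterol list as a whole gave 2 higher and 2 lower of 25, 16% called and near the 14.2% of all genes. In this list 1 was higher whichever library was left out and 1 lower without CKO 72 or any WT library. Of 28 immediate early and heat shock genes 2 rose and 5 fell, 25% called against 14.2% of all genes. Without CKO 65, 4 rose, without WT 70, 2 fell, without WT 71, 3 fell, and without CKO 72, 8 fell. Fos, an immediate early gene that handling of cells can induce, rose from 629, 680 and 553 CPM to 934, 869 and 1169 CPM (log2 0.67 ± 0.11, adjusted p = 0.00183), while Junb, of the same class, fell by log2 -0.29 ± 0.09, a call lost without 5 of the 6 libraries.

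The named genes with the largest rises were mostly outside the lists of T cell function. Ggt1, the enzyme that breaks down extracellular glutathione, stood at 8.28, 10.9 and 8.88 CPM in WT and at 67.3, 67.99 and 58.7 CPM in CKO, a rise of 6.92-fold (log2 2.79 ± 0.11, adjusted p = 7.62e-08). It lies at 75561076 to 75586193 on chromosome 10, and of its 10 nearest tested genes, looked at after its value was seen, 4 rose (Gucd1, Lrrc75b, Ggt5 and Cabin1) and 1 fell (Adora2a). Lrrc75b, the next gene, is itself among the 15, at log2 1.83 ± 0.16, and reads of neighbours that overlap cannot be told apart by these counts. Drc1, a gene of motile cilia, went from 2.01, 2.69 and 2.94 CPM to 20.8, 15.5 and 12.6 CPM (log2 2.67 ± 0.22, adjusted p = 2.59e-05). Fcgrt, the neonatal Fc receptor, rose from 5.34, 4.30 and 4.68 CPM to 22.4, 19.3 and 21.3 CPM (log2 2.14 ± 0.14, adjusted p = 5.63e-06), and Rasgrp4, a Ras activator, from 5.84, 6.60 and 5.20 CPM to 22.4, 29.1 and 21.6 CPM (log2 2.05 ± 0.15). The 15 were picked from called genes without overlap, so a gap between the genotypes in these genes follows from the choice. Adcy6, an adenylyl cyclase, rose by log2 1.38 ± 0.08, Adamts10, a metalloprotease, by 1.18 ± 0.07, Lgals4 (galectin 4) by 1.35 ± 0.09 and Ube4a, a ubiquitin ligase, by 0.998 ± 0.07, and these are among the 10 smallest p-values. Mmp25, Unc13a, Nhsl2, Sema6d and Tnfrsf21 complete the 15 with log2 values of 2.32, 2.20, 2.07, 2.07 and 1.89, with Mmp25 at 3.15 and Nhsl2 at 3.17 without WT 70 and Sema6d at 1.44 without CKO 65. The Nhsl2 and Tnfrsf21 calls were lost without WT 71 (adjusted p = 0.0549 and 0.0525).

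The largest falls held further genes that are not in the lists. Gpm6b, a membrane proteolipid best known in neurons, stood at 32.2, 26.4 and 55.6 CPM in WT and at 5.04, 2.69 and 3.15 CPM in CKO, a fall of 10.4-fold (log2 -3.38 ± 0.29, adjusted p = 2.92e-05). Cacna1d, a voltage-gated calcium channel, went from 13.8, 9.86 and 23.4 CPM to 1.31, 1.85 and 0.614 CPM (log2 -3.64 ± 0.38, adjusted p = 8.88e-05). Plagl1, a zinc finger factor, went from 11.4, 17.8 and 27.4 CPM to 3.12, 4.25 and 3.40 CPM (log2 -2.39 ± 0.28, adjusted p = 2.16e-04). As in the follicular helper list, WT 71 was the highest library for these 3 genes. Fam160a1, Npas4, Nrbp2, Ptpn5, Mmp9 and Il1r2, the decoy receptor of interleukin 1, complete the 15 with log2 values of -3.30, -3.17, -2.85, -2.36, -2.31 and -2.08, and Npas4 was at -3.89 without CKO 65. Tpm3-rs7, an annotated tropomyosin pseudogene on chromosome 14, fell from 218, 221 and 211 CPM to 63.3, 59.4 and 53.7 CPM (log2 -1.88 ± 0.07, adjusted p = 6.68e-08), with reads that may be shared with its parent gene.

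A pair of gene models was nearly confined to 1 genotype. Gm33707, an annotated pseudogene at 60769583 to 60771638 on chromosome 3, had 0, 0 and 1 counts in WT and 1909, 1087 and 1182 counts in CKO. The ratio of the sums, scaled for library totals and composition, was 4280 (exact 95% interval 768 to 169000, counting error only). Gm37035, for which no position was matched, had 0, 1 and 0 counts against 356, 278 and 239, a ratio of 895 (160 to 35400). Of the 10 tested genes nearest to Gm33707, 1 rose and 9 did not pass. Around Prmt5 itself, the 25 tested genes on either side (51893082 to 55570065 on chromosome 14) gave 6 higher, 2 lower and 42 that did not pass, 16.0% called against 14.2% of all genes. Among the calls there were a fall of Ajuba (log2 -1.96 ± 0.41) and rises of Slc7a8 (log2 1.35 ± 0.39, lost without any library but CKO 68) and Ap1g2 (log2 0.70 ± 0.06), picked out after their values were seen.

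The CD8 cells of the same mice served to ask which changes differed between the populations. Their own comparison called 2234 genes (16.1% of those tested). The difference of the genotype effects, CD8 minus CD4, was tested over 12 libraries and called for 383 of 14958 genes (2.56%), among them 55 of the 235 genes named for CD4 cells. Of these 235, 227 were called in CD4 cells. Their choice alone makes a called difference more likely, so their share cannot be set beside that of all genes. Without a term for the animal 271 differences were positive and 112 negative, and with the animal as a block, since each mouse gave both populations, the counts were 672 and 411. Of the 15 largest rises in CD4 cells 14 could be tested in CD8 cells, and 10 of them rose there too. Among the 15 largest falls 8 could be tested, of which 0 fell and 1, Nrbp2, rose. Zbtb16 fell in CD4 cells and had an estimate of log2 1.40 ± 0.46 in CD8 cells (adjusted p = 0.0622), a difference of 4.12 ± 0.41 (adjusted p = 1.50e-04). Pdcd1 fell in CD4 cells and rose in CD8 cells, from a mean of 3.89 to 12.6 CPM (log2 1.70 ± 0.26, adjusted p = 0.00152), a difference of 2.76 ± 0.41 (adjusted p = 0.00187). Ifng (difference 2.17 ± 0.28), Fasl (2.12 ± 0.21) and Ikzf2 (1.79 ± 0.17) also fell in CD4 cells and rose in CD8 cells. Klf2 went the other way, up in CD4 cells and down in CD8 cells (difference -0.66 ± 0.10). Prmt5 itself showed no called difference (0.10 ± 0.17, adjusted p = 0.897).

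**Figure D5:**
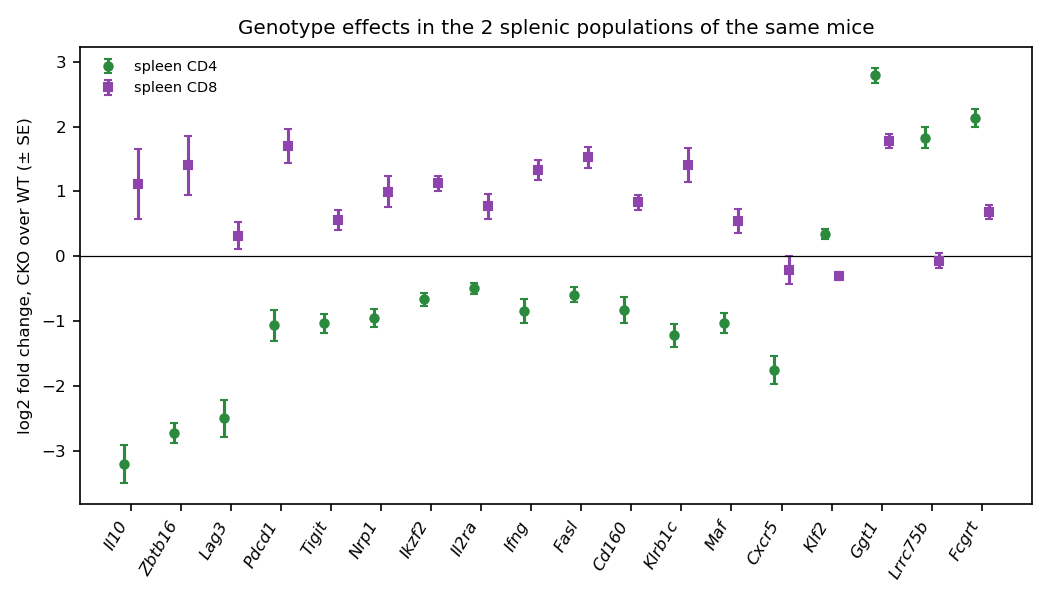
Points give the log2 fold change of CKO over WT with its SE in spleen CD4 (green circles) and spleen CD8 (purple squares) for 18 genes whose effects differed by the test, picked after their values were seen. Il10, Zbtb16, Pdcd1, Ifng and Fasl lie under 0 in CD4 cells and above 0 in CD8 cells, while Ggt1 and Fcgrt lie above 0 in both and higher in CD4 cells.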

How the data were processed

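The authors deposited a table of raw read counts per gene (the unit of all values used) for all libraries, from poly(A) RNA and directional libraries per the labels' protocols, with HISAT2, HTSeq and build GRCm38 named in the submitters' processing notes. For versions, annotation and strand setting, no value was given in the sources used here. The 6 spleen CD4 libraries were fitted with edgeR 4.0.16 in R 4.3.3 (filterByExpr, TMM scaling, quasi-likelihood test, Benjamini-Hochberg adjustment over all 14292 genes). The SE is the log2 fold change divided by the root of F. DESeq2 1.42.0, limma 3.58.1 (voom with quality weights), other filters and scaling, and leaving out each library were alternatives. The population difference was an interaction over 12 libraries. The fits were tested on simulated data. Named genes are Prmt5, Cd4, Il21 and Cxcr5, the 15 largest called changes each way (at least 5 CPM in the higher group, no overlap, unnamed models and receptor segments left out), the 10 smallest p-values, and called members of each list (the 2 smallest p where fewer were called). Members and lists were chosen with earlier results of these data known. Replicates are separate mice by their numbers, and pairs differed beyond sampling noise. Positions matched RefSeq GRCm38.p6 for 13834 of the genes tested. Same-animal deviations in CD4 and CD8 correlated at 0.0989 to 0.317, other pairs of a genotype at -0.187 to 0.0109. Results for a few genes are not reported here.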

Additional observations from a re-analysis of the deposited data

Results flagged for a closer look

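The effect of the genotype differed between spleen CD8 and spleen CD4 cells for 55 named genes, by the interaction test of edgeR at an adjusted p under 0.05, of which 53 are given here. Values in brackets are the difference of the log2 fold changes, CD8 minus CD4. These genes fell in CD4 cells and did not pass in CD8 cells: Cxcr5 (1.55), Angptl2 (3.04), Gpm6b (2.91), Il10 (4.32), Npas4 (2.96), Zbtb16 (4.12), Lag3 (2.82), Plagl1 (3.04), P2rx7 (1.23), Rgs16 (1.63), Izumo1r (1.03), Maf (1.57), Ctla4 (0.71), Lrrc32 (1.83), Cst7 (1.25), Csf1 (2.16), Nfatc1 (0.47), Nt5e (1.11), Bcl2a1d (1.76), Gbp3 (0.87) and Mcm6 (0.48). These genes rose in both: Ggt1 (-1.02) and Fcgrt (-1.46). These genes rose in CD4 cells and did not pass in CD8 cells: Snrnp40 (-3.02), Lrrc75b (-1.90), Igfbp4 (-0.80), Itgae (-1.08), Klrd1 (-0.92), Fos (-0.66), Ggt5 (-0.82) and Cd8b1 (-0.96). These genes fell in CD4 cells and rose in CD8 cells: Nrbp2 (4.27), Itga4 (0.66), Il2rb (0.84), Pdcd1 (2.76), Tigit (1.59), Nrp1 (1.95), Ikzf2 (1.78), Il2ra (1.26), Fasl (2.12), Ifng (2.17), Bhlhe40 (2.01), Fyn (0.56), Pdcd1lg2 (2.15), Cd160 (1.66), Klrb1c (2.62), Cd22 (2.66) and Cybb (2.13). This gene fell in CD4 cells and was too low to be tested in CD8 cells: Mmp9 (2.88). This gene rose in CD4 cells and was too low to be tested in CD8 cells: Gm33707 (-11.06). These genes rose in CD4 cells and fell in CD8 cells: Klf2 (-0.66) and Cd55 (-1.01). This gene did not pass in CD4 cells and rose in CD8 cells: Tcrg-C2 (2.34). The sets are given by the calls in each population, and a gene that did not pass in one is not shown to be without a change there. Tcrg-C2 may share reads with other constant segments of its family, and its value is uncertain.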

How the results depend on the processing

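In spleen CD4 cells 1219 genes were higher and 805 lower in CKO. Leaving out 1 library gave 706 to 1232 higher and 379 to 912 lower. Without WT 70 it was 767 and 445, without WT 71 706 and 379, and without WT 67 or CKO 72 520 and 522 were lower. For the difference between populations (271 positive, 112 negative), leaving out 1 library gave 131 to 381 and 27 to 175, DESeq2 429 and 207, and the replicate block (animal) 672 and 411. The block called all 55 named differences too. The cause of these shifts was not tested, beyond fewer samples where one was left out. Prmt5 stayed called and lower under every alternative run. Of 227 named genes called, 131 kept the call under every alternative that tested them, 95 lost it without at least 1 library, and 0 turned direction. The filter of 5 CPM in 3 libraries left out named genes of low level, so these could not lose a call there. Other settings moved some list counts by over 1.5 times. With no count filter the numbers higher and lower were 15 and 14 for chemokine receptors and integrins, 7 and 7 for type 1 and cytotoxic, 12 and 4 for activation and memory, 7 and 11 for interferon response and 3 and 9 for immediate early and heat shock genes. With a minimum of 5 CPM in 3 libraries 0 of the type 2 and type 17 genes were higher, and in a fit with all 12 spleen libraries 5 naive genes were. No paired analysis was possible for the genotypes because they share no animal number. A sex covariate was not run, since all libraries were of one sex. Genes under about 0.4 CPM, near 10 counts, are beyond this depth, and 3 mice a group limit small changes. Intervals on counts cover counting error only.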

Other observations

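Other lists moved as follows. Of 8 GIMAP genes, GTPases of lymphocyte survival, 0 rose and 2 fell, with 1 lower without WT 67, WT 71 or CKO 72 and 1 higher without WT 67. Of 21 glutathione and gamma-glutamyl genes 4 rose, Ggt1, Ggt5, Mgst1 and Mgst2, and 2 fell, the amino acid transporter genes Slc7a5 and Slc3a2. The share called was 28.6% against 14.2% of all genes. Mgst1 was low, at a mean of 0.08 CPM in WT and 0.92 CPM in CKO, and its call was lost without WT 70, WT 71 or CKO 72. The Mgst2 call was lost without WT 67, WT 70, CKO 65 or CKO 68. Without WT 70, 2 rose and 1 fell, and without WT 71 or CKO 72, 1 fell. Plasma cell markers gave 0 higher and 1 lower, Xbp1, of 5 tested, with a summed level of 139 to 189 CPM in WT and 97 to 113 CPM in CKO.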
